A study of Mus musculus with 12 samples.

Results

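Nlrp genes encode NOD-like receptors with an N-terminal pyrin domain, a nucleotide-binding NACHT domain and leucine-rich repeats. The family was followed here in TT2 mouse embryonic stem (ES) cells that lack the zinc finger genes Rlf and Zfp292, and in wild-type cells. Genes of the deposited gene table were chosen by their symbol, Nlrp followed by a digit, and by their level, a normalized count of 10 or more in at least 3 of 12 libraries. A normalized count is a read count divided by the size factor of its library. The table held 17901 genes, of which 13 were Nlrp genes, and 9 of these passed: Nlrp3, Nlrp6, Nlrp9b, Nlrp12, Nlrp14, Nlrp4a, Nlrp4c, Nlrp4f and Nlrp4g. The remaining 4, Nlrp4e, Nlrp5, Nlrp9c and Nlrp10, stayed below that level. Because levels chose the 9 genes, counts over them describe the genes that could be tested and support nothing about the family.

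Some Nlrp proteins are sensors of innate immunity. NLRP3 is the best known: once activated it recruits the adaptor ASC, encoded by Pycard, and caspase-1 into an inflammasome, which matures interleukin-1β and interleukin-18 and opens gasdermin D pores. Others are known from oocytes and early embryos, where NLRP5 (MATER) belongs to the subcortical maternal complex, and rodents carry a set of Nlrp4 and Nlrp9 copies that are mostly studied in the germ line. ES cells are not a usual site of inflammasome activity.

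There were 4 groups of 3 libraries each. Double knockout cells (DKO, Rlf and Zfp292 both disrupted) and wild-type cells (WT) had been grown in 5 µM retinoic acid (RA) for 72 hours, with LIF withdrawn, and DKO and WT cells had been kept undifferentiated in medium with serum, serum replacement and LIF (serum/LIF). Changes with RA below are changes between these cultures: RA, the withdrawal of LIF and the 72 hours of culture cannot be told apart. All groups came from the TT2 line. The labels call the 3 libraries of a group biological replicates and do not say whether the DKO libraries stem from 1 clone or several, so p-values measure the spread between these libraries. Libraries held 30869766 to 40236799 reads assigned to genes.

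The labels held for the targeted genes. Rlf had 1 read over the 3 DKO RA libraries, 8426 in WT RA, 6 in DKO serum/LIF and 10999 in WT serum/LIF, and Zfp292 had 0, 10237, 0 and 14965 reads in the same groups. The summed normalized count of 8 ES cell markers was 10286 to 11146 in DKO RA, 5377 to 5889 in WT RA, 136974 to 140608 in DKO serum/LIF and 154196 to 159272 in WT serum/LIF. All 8 markers of the RA response rose with RA in DKO and in WT cells. Replicate 2 of WT RA stood apart from its group: the chi-square per degree of freedom between read counts was 10.3 and 14.6 against replicates 1 and 3, and 5.14 between those other libraries. In bulk RNA, fewer cells of a type and less RNA per cell cannot be told apart.

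Of the 9 genes, 6 lie on chromosome 7 of mm10, at separate places: Nlrp12 (minus strand, chr7:3221510-3249740), Nlrp4c (plus, chr7:6045161-6105149), Nlrp9b (plus, chr7:20008023-20062940), Nlrp4a (plus, chr7:26435113-26476142), Nlrp14 (plus, chr7:107166990-107198103) and Nlrp6 (plus, chr7:140920902-140929192). Nlrp4g lies on chromosome 9 (plus, chr9:124348835-124356974), Nlrp3 on chromosome 11 (plus, chr11:59542686-59566955) and Nlrp4f on chromosome 13 (minus, chr13:65177111-65205716). These spans are the gene bounds of the deposited table. Within them, exons of the GENCODE M21 transcript used for each gene overlapped no exon of another gene. Exon parts beyond the spans were not searched. For 8 of the 9 genes that transcript was matched to the deposited model by RefSeq accession, and exon structures were not compared. Nlrp4g had no such match, so its values here describe the GENCODE transcript alone. Sequence shared with other genes matters for read counts in this family. The share of 50-base windows of the transcript found in transcripts of other genes was 11.9% for Nlrp4c, 9.44% for Nlrp4g, 7.13% for Nlrp4f, 6.22% for Nlrp9b, 3.11% for Nlrp4a and 2.65% for Nlrp12. It was 0% for Nlrp3, Nlrp6 and Nlrp14. Not all of this shared sequence is in Nlrp copies. The Nlrp4a share was spread over 520 other genes. The gene that shared most with Nlrp12 was Mir294, at 0.509% of windows, counted on either strand. By these transcripts, Nlrp4g and Nlrp4f share most with each other, 8.18% of the windows of Nlrp4g and 4.66% of those of Nlrp4f. How reads with several matches were counted is not stated in the sources used, so levels of the Nlrp4 copies are less certain than those of Nlrp3, Nlrp6 and Nlrp14.

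Upstream sequence is shown for the genes with the widest differences between DKO and WT cells in serum/LIF, Nlrp4a, Nlrp9b and Nlrp3, and for Nlrp4f, which was called different between DKO and WT cells after RA. Each sequence gives the 250 bases before the start site of the deposited gene model, from RefSeq for build GRCm38.p6 (mm10), 5′ to 3′ on the strand of the gene, with CpG sites in capitals. The windows are chr7:26434863-26435112 (plus), chr7:20007773-20008022 (plus), chr11:59542436-59542685 (plus) and chr13:65205717-65205966 (minus).
Nlrp4a: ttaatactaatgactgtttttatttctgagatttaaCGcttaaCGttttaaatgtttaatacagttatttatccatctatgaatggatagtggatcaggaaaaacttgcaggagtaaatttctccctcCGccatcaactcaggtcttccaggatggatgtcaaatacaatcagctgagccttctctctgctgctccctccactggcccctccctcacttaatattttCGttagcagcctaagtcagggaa
Nlrp9b: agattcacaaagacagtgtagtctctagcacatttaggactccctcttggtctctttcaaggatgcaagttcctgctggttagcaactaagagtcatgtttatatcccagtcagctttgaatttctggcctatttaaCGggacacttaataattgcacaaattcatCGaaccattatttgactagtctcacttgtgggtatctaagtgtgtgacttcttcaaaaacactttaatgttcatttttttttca
Nlrp3: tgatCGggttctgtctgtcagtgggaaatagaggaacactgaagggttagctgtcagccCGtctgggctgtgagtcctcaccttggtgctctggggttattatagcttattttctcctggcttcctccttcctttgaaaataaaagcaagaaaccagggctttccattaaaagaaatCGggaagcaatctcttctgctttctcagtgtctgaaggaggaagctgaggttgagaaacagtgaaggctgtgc
Nlrp4f: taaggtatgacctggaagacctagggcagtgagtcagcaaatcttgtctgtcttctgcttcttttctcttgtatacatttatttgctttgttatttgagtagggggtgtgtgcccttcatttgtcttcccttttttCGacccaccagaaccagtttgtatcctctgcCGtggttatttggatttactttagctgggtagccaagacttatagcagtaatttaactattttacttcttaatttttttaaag

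These 4 windows held few CpG sites: 4 in Nlrp4a, 2 in Nlrp9b, 3 in Nlrp3 and 2 in Nlrp4f. Over 32851 promoter windows of the same length the median was 6, and 44.4% had 4 or fewer, 37.8% had 3 or fewer and 29.0% had 2 or fewer. The windows of the 7 genes with a RefSeq entry at this start held 2 to 7 CpG sites, and that of Nlrp4c alone was at or above the median of all promoters. The letters AGGTCA, a half-site of nuclear receptors such as the RA receptors, were searched on both strands and found in the Nlrp4f window and in none of the other 6, and in 14.02% of all windows. The octamer ATTTGCAT was in 0 of the 7 windows and in 1.6% of all. TATAAA, like the octamer also searched on both strands, was in the Nlrp9b window only, and in 12.37% of all. Its match there is on the strand opposite to the gene, so the printed sequence shows it as tttata. A match to letters is a description of the window and not a bound site.

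Per kilobase of transcript, which allows levels to be set side by side between genes, Nlrp4f was the most abundant in every group, with 135 ± 13.2 normalized counts per kb in DKO RA, 44.8 ± 5.53 in WT RA, 311 ± 29.4 in DKO serum/LIF and 299 ± 15.2 in WT serum/LIF (SD, n = 3 each). In WT serum/LIF cells the next levels per kb were 141 ± 1.62 for Nlrp9b, 63.6 ± 6.08 for Nlrp3, 48.7 ± 6.89 for Nlrp4a, 38.0 ± 6.99 for Nlrp14, 30.7 ± 1.79 for Nlrp4c, 11.0 ± 3.67 for Nlrp6 and 3.06 ± 1.56 for Nlrp12. Nlrp4a and Nlrp14, and likewise Nlrp14 and Nlrp4c, differed by about their spread, whereas Nlrp4f, Nlrp9b and Nlrp3 were each separated by more than it. Nlrp4g is left out of this order because its deposited model had no transcript of matching accession in GENCODE. The Nlrp12 level uses a GENCODE length of 6928 bases, which was not compared with the deposited model.

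Differences were tested with limma on log2(normalized count + 1) in 1 fit over the 12 libraries, and calls were made where the p adjusted by Benjamini-Hochberg over 15750 tested genes was under 0.05. The log2 fold changes below are on that scale, which for genes with few reads can lie above or below the log2 ratio of mean levels, and carry the standard error (SE) of the fit. In serum/LIF, 1 of the 9 genes was called higher and 4 lower in DKO than in WT, where 17.8% of all tested genes were called higher and 15.4% lower. After RA, 2 were called higher and 3 lower in DKO, against 22.0% and 20.7% of all genes. With RA, 2 were called higher and 5 lower in DKO cells, against 40.2% and 38.2% of all genes. In WT cells, 0 were called higher and 8 lower with RA, against 41.4% and 39.2%. These counts include Nlrp12 and Nlrp4g, chosen through the libraries of 1 genotype, and Nlrp14, which would not have passed without the serum/LIF libraries. They also include Nlrp4a, whose serum/LIF difference was known. The median log2 fold change over the 9 genes was -0.40 for DKO against WT after RA, -0.97 for DKO against WT in serum/LIF, -1.20 for RA against serum/LIF in DKO and -3.17 in WT. Over all tested genes the same medians lay between -0.01 and 0.04. The medians of -0.40 and -3.17 are the values of Nlrp12, which had 92 reads over the 12 libraries. The authors' deposited table, at the same threshold, lists 1 of the 9 as higher and 5 as lower in DKO in serum/LIF, 2 and 3 after RA, 1 and 5 with RA in DKO cells, and 0 and 7 with RA in WT cells.

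**Figure D1:**
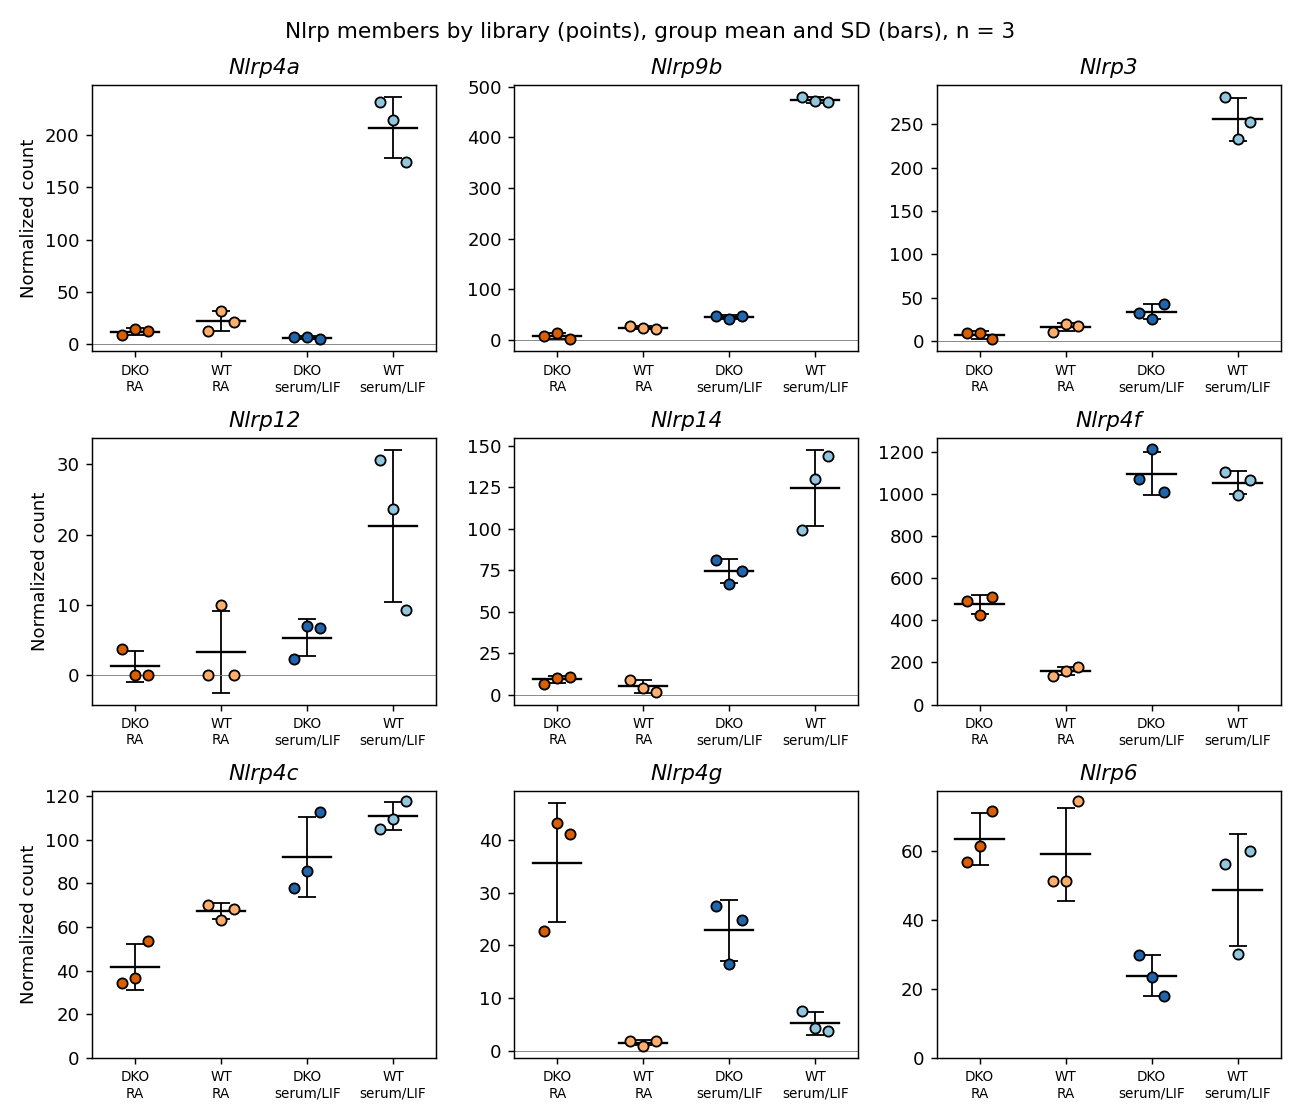
Normalized counts of the 9 Nlrp genes in each library (points) with the group mean and SD (n = 3), in DKO RA, WT RA, DKO serum/LIF and WT serum/LIF cells, each panel with its own linear axis. WT serum/LIF libraries stand far above the rest for Nlrp4a, Nlrp9b and Nlrp3, and DKO RA libraries stand above WT RA libraries for Nlrp4f and Nlrp4g.

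Among the receptors known for innate sensing, Nlrp3, Nlrp9b and Nlrp6 were lower in DKO than in WT in serum/LIF, and Nlrp3 and Nlrp9b also fell with RA in each genotype. Nlrp3 had 9.48, 9.18 and 1.79 normalized counts in replicates 1 to 3 of DKO RA, 10.8, 20.1 and 17.0 in WT RA, 32.1, 25.8 and 42.8 in DKO serum/LIF, and 282, 233 and 252 in WT serum/LIF. The 4 groups do not overlap, and their order from low to high was DKO RA, WT RA, DKO serum/LIF and WT serum/LIF. In serum/LIF, Nlrp3 was 7.62-fold lower in DKO (log2 fold change -2.92 ± 0.42, limma adjusted p = 6.57e-06). With RA it was lower in DKO cells (log2 fold change -2.34 ± 0.42, limma adjusted p = 2.18e-05) and in WT cells (-3.96 ± 0.42, limma adjusted p = 6.06e-09). After RA it was 2.34-fold lower in DKO (log2 fold change -1.30 ± 0.42, limma adjusted p = 0.0148) on 22 DKO and 51 WT reads over 3 libraries each. Without replicate 3 of DKO RA, the log2 fold change with RA in DKO cells was -1.71 and still called. The call after RA was lost without that library (log2 fold change -0.68, limma adjusted p = 0.138) and without replicate 2 of WT RA (-1.13, limma adjusted p = 0.057).

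Nlrp9b, described in mouse intestinal epithelium as a sensor of rotavirus RNA, showed the widest range of the 9 genes, 6.04 log2 units between its highest and lowest group means. It had 7.58, 14.7 and 1.79 normalized counts in DKO RA, 27.0, 24.1 and 21.5 in WT RA, 48.2, 41.1 and 47.3 in DKO serum/LIF, and 479, 471 and 469 in WT serum/LIF. The groups do not overlap and follow the same order as those of Nlrp3. It was 10.4-fold lower in DKO than in WT in serum/LIF (log2 fold change -3.35 ± 0.40, limma adjusted p = 4.99e-07) and 3.02-fold lower after RA (-1.80 ± 0.40, limma adjusted p = 0.000824). With RA it was 5.67-fold lower in DKO cells and 19.5-fold lower in WT cells (limma adjusted p = 1.87e-06 and 9.62e-10). The difference after RA rests on 26 DKO and 78 WT reads. Without replicate 3 of DKO RA its log2 value was -1.11 (limma adjusted p = 0.00415). The log2 fold change with RA in DKO cells was -1.999 without that library, against -2.68 with it, and was called in each case.

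Nlrp6, a receptor of the gut epithelium, was spread over a narrower range, 1.4 log2 units between group means. Its normalized counts were 56.9 to 71.6 in DKO RA, 51.2 to 74.5 in WT RA, 18.0 to 29.8 in DKO serum/LIF and 30.1 to 59.8 in WT serum/LIF. DKO serum/LIF was the low group, and the RA groups overlapped each other. With RA it rose 2.66-fold in DKO cells (log2 fold change 1.40 ± 0.31, limma adjusted p = 0.000221), while in WT cells the log2 fold change was 0.31 ± 0.31 (limma adjusted p = 0.353). In serum/LIF it was 2.05-fold lower in DKO (log2 fold change -0.97 ± 0.31, limma adjusted p = 0.0161). That call was lost without replicate 3 of DKO serum/LIF (limma adjusted p = 0.0692), replicate 1 of WT serum/LIF (0.0687) or replicate 3 of WT serum/LIF (0.0837). After RA the log2 difference between DKO and WT was 0.12 ± 0.31 (limma adjusted p = 0.787).

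Nlrp12, which dampens inflammatory signalling in myeloid cells, was the rarest of the 9 and entered through 2 WT serum/LIF libraries, at 30.6 and 23.6 normalized counts, and 1 WT RA library, at 10.04. The third WT serum/LIF library, at 9.35, was just under the level that chose the genes. Its reads summed to 4 in DKO RA, 10 in WT RA, all in replicate 2, 14 in DKO serum/LIF and 64 in WT serum/LIF. Since WT libraries alone brought it in, its differences from WT serum/LIF and between genotypes are given without a test. Allowing for size factors, it had 3.92-fold fewer reads in DKO than in WT in serum/LIF, and 6.77-fold fewer with RA in WT cells. In DKO cells the log2 fold change with RA was -1.81 ± 0.94 (limma adjusted p = 0.0839). Without replicate 1 of DKO RA, which held its 4 reads, it was -2.56 (limma adjusted p = 0.028). The table's Nlrp12 ends 669 bases from Mir295 of the miR-290 cluster, which is transcribed from the opposite strand and fell in RA in DKO and WT cells (log2 fold changes -4.91 ± 0.33 and -5.14 ± 0.33, limma adjusted p = 1.5e-12 and 5.13e-13). Whether the counting used strand is likewise not stated, and a part of these reads in the Nlrp12 values was not tested.

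Blood and macrophage markers were set beside these genes. The 9 of 12 listed markers in the table summed to 402 to 465 normalized counts in DKO RA, 470 to 533 in WT RA, 862 to 924 in DKO serum/LIF and 1025 to 1093 in WT serum/LIF. Their sum was thus highest in WT serum/LIF, where Nlrp3 was highest, although Csf1r and Aif1 had 0 reads there. Lyz2 had 0 reads in DKO serum/LIF. Laptm5, a lysosomal protein gene of blood cells, carried most of the sum in WT serum/LIF but not in DKO serum/LIF. It had 349 ± 10.7 normalized counts in DKO and 782 ± 6.89 in WT serum/LIF (SD, n = 3 each). Cd68, a macrophage lysosomal marker, went the other way, with 401 ± 3.60 in DKO and 164 ± 9.69 in WT serum/LIF. These were the 1 marker called lower and the 1 called higher in DKO among 7 tested there, against 15.4% and 17.8% of all genes. Fibroblast markers, which would mark feeder cells or differentiation, ran the other way in serum/LIF: the 11 listed genes summed to 22375 to 23687 in DKO and 7518 to 7577 in WT. Their part in the Nlrp differences was not tested.

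Among the genes known from oocytes and early embryos, Nlrp4a was high in WT serum/LIF cells and low in the other groups. Nlrp4a had 8.53, 14.7 and 12.5 normalized counts in DKO RA, 12.6, 32.1 and 21.5 in WT RA, 6.88, 7.04 and 4.51 in DKO serum/LIF, and 232, 215 and 175 in WT serum/LIF. WT serum/LIF stood above every other library, the RA groups overlapped, and DKO serum/LIF was lowest. In serum/LIF it was 33.7-fold lower in DKO, on 16 DKO and 630 WT reads. The 95% interval of that fold for counting error alone, taken over read pairs, was 16.9 to 78.9. This difference was known when the gene was chosen, so it and the changes with RA, which use the same serum/LIF libraries, are given without a test. With RA, Nlrp4a was 9.39-fold lower in WT cells, on 70 RA and 630 serum/LIF reads. In DKO cells it was 1.94-fold higher, on 39 RA and 16 serum/LIF reads. The 95% interval of that fold for counting error alone, over read pairs, was 0.845 to 5.26 and includes no change. After RA the log2 difference between DKO and WT was -0.78 ± 0.39 (limma adjusted p = 0.111). It was called in 2 of 19 alternative settings. These were the fit without replicate 1 of WT RA (-1.11, limma adjusted p = 0.0331) and DESeq2 on the recovered reads (-0.875, DESeq2 adjusted p = 0.0473).

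Nlrp14, needed in mouse oocytes for early embryo development, was high in serum/LIF in both genotypes and low with RA. It had 6.64, 10.1 and 10.7 normalized counts in DKO RA, 9.01, 4.01 and 1.79 in WT RA, 81.4, 66.9 and 74.4 in DKO serum/LIF, and 99.3, 130 and 144 in WT serum/LIF. The serum/LIF groups do not overlap, and the RA groups do. With RA it was 8.1-fold lower in DKO cells and 25.2-fold lower in WT cells (log2 fold changes -2.91 ± 0.41 and -4.58 ± 0.41). With a pseudocount of 5 the WT value was -3.75. Nlrp14 passed the level that chose the genes in the 3 libraries of each serum/LIF group, 2 of DKO RA and 0 of WT RA. Its fall with RA is therefore given without a test. DKO against WT gave log2 differences of 0.94 ± 0.41 after RA and -0.73 ± 0.41 in serum/LIF, neither called by limma (adjusted p = 0.0656 and 0.18). The difference after RA was called without replicate 1 of DKO RA or replicate 1 of WT RA (log2 1.14 and 1.42, limma adjusted p = 0.0489 and 0.00676). That in serum/LIF was called by edgeR on the recovered reads, by DESeq2 and by edgeR on read pairs (adjusted p = 0.0407, 0.0226 and 0.0139).

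Nlrp4f, which encodes an oocyte protein reported to interact with the subcortical maternal complex, had nearly the same level in DKO and WT cells in serum/LIF and a 3.01-fold higher level in DKO after RA. Its normalized counts were 491, 423 and 513 in DKO RA, 138, 160 and 177 in WT RA, 1070, 1211 and 1009 in DKO serum/LIF, and 1102, 996 and 1064 in WT serum/LIF. The serum/LIF groups overlapped, and every DKO RA library lay above every WT RA library. The log2 difference between DKO and WT was 1.59 ± 0.10 after RA (limma adjusted p = 7.39e-12) and 0.05 ± 0.10 in serum/LIF (limma adjusted p = 0.724). With RA, Nlrp4f was 2.31-fold lower in DKO cells and 6.67-fold lower in WT cells (log2 fold changes -1.20 ± 0.10 and -2.74 ± 0.10, limma adjusted p = 8.76e-11 and 7.13e-18). With 8141 reads over the 12 libraries it was the deepest of the 9, and these calls held in each of 19 alternative settings.

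Nlrp4g was low in WT cells and higher in DKO cells under both conditions. Its normalized counts were 22.8 to 43.2 in DKO RA, 1.00 to 1.80 in WT RA, 16.4 to 27.5 in DKO serum/LIF and 3.74 to 7.64 in WT serum/LIF, and its reads summed to 117, 5, 60 and 16. The DKO and WT groups do not overlap under either condition. It passed the level that chose the genes in the 6 DKO libraries and in none of the WT libraries. Its genotype difference is therefore given without a test or interval: 23.1-fold more reads after RA and 4.38-fold more in serum/LIF, allowing for size factors. With RA its log2 fold change was 0.60 ± 0.53 in DKO cells (limma adjusted p = 0.304) and -1.26 ± 0.53 in WT cells (limma adjusted p = 0.031). The WT call rests on 5 and 16 reads, was lost in edgeR (adjusted p = 0.0572) and with a pseudocount of 5 (limma adjusted p = 0.0906), and was lost without replicate 2 of WT RA or replicate 1 of WT serum/LIF (limma adjusted p = 0.0741 and 0.119). GENCODE annotates Nlrp4g as a transcribed unprocessed pseudogene and RefSeq as protein-coding. Nlrp4f, with which it shares most sequence, was also higher in DKO after RA but not called in serum/LIF, where Nlrp4g had more reads in DKO.

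Nlrp4c varied least in proportion after Nlrp6, over 1.42 log2 units between group means. It had 34.1, 36.7 and 53.7 normalized counts in DKO RA, 70.3, 63.2 and 68.2 in WT RA, 78.0, 85.7 and 113 in DKO serum/LIF, and 105, 110 and 118 in WT serum/LIF. The RA groups do not overlap, and the serum/LIF groups do. It fell with RA 2.22-fold in DKO cells and 1.65-fold in WT cells (limma adjusted p = 7.38e-05 and 0.00608). After RA it was 1.62-fold lower in DKO (log2 fold change -0.71 ± 0.23, limma adjusted p = 0.0138), a call lost without replicate 1 or 2 of DKO RA (limma adjusted p = 0.0659 and 0.0504). In serum/LIF the log2 difference was -0.28 ± 0.23 (limma adjusted p = 0.369).

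The Nlrp genes below the chosen level held few reads. Over the 3 libraries of DKO RA, WT RA, DKO serum/LIF and WT serum/LIF, Nlrp5 had 3, 0, 4 and 14 reads, Nlrp4e 8, 2, 2 and 0, Nlrp9c 0, 0, 10 and 4, and Nlrp10 14, 2, 8 and 14. Nlrp5, the maternal-effect gene of the family, thus gave no level that could be compared at this depth. Another 8 Nlrp symbols of the RefSeq table were not analysed here.

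**Figure D2:**
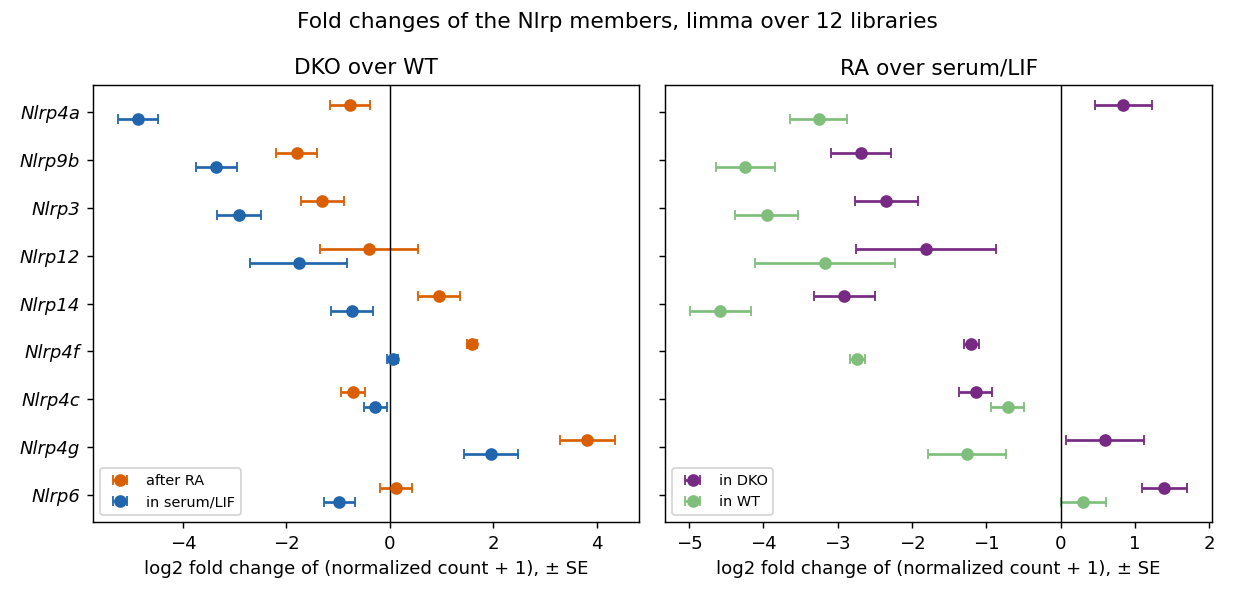
Log2 fold change of (normalized count + 1) with the SE of the limma fit for each Nlrp gene, DKO over WT after RA and in serum/LIF (left) and RA over serum/LIF in DKO and in WT cells (right). Values for DKO over WT lie further right after RA than in serum/LIF for every gene but Nlrp4c. That shift was called for 4 of the 8 genes other than Nlrp4a, where 14.8% of all tested genes were called positive.

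The change with RA differed between the genotypes for several genes, which the interaction tests (the log2 difference between DKO and WT after RA minus that in serum/LIF). It was called for 4 of the 8 genes other than Nlrp4a, all positive, where 14.8% of all tested genes were called positive and 16.0% negative. Nlrp4f had the smallest adjusted p, with a value of 1.53 ± 0.14 (limma adjusted p = 1.29e-08), and kept its call in each of 19 alternative settings. Values of similar size for Nlrp14 (1.67 ± 0.58), Nlrp3 (1.61 ± 0.60) and Nlrp9b (1.55 ± 0.57) were close to the threshold (limma adjusted p = 0.0299, 0.0425 and 0.0402). For Nlrp4a the value was 4.10 ± 0.55, given without a test. With 1 library left out, the interaction of Nlrp9b was called in 1 of 12 fits, without replicate 3 of DKO RA (limma adjusted p = 0.000149 to 0.137), where its value was 2.24. That of Nlrp3 was called in 4 of 12, without replicate 3 of DKO RA, 2 or 3 of WT RA or 3 of DKO serum/LIF (limma adjusted p = 0.000981 to 0.121), and its value was 2.24 without replicate 3 of DKO RA. That of Nlrp14 was called in 5 of 12, without replicate 1 of DKO RA, 1 or 2 of WT RA, 1 of DKO serum/LIF or 1 of WT serum/LIF (0.00403 to 0.079). Nlrp6 had an interaction of 1.09 ± 0.43 (limma adjusted p = 0.0582), which was called without replicate 3 of WT RA, replicate 1 of DKO serum/LIF or replicate 2 of WT serum/LIF (limma adjusted p = 0.0401, 0.0392 and 0.0145). Over all 12 libraries it was called by limma with a pseudocount of 5 (adjusted p = 0.0461), by DESeq2 (0.0385) and by edgeR on read pairs (0.042).

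Among inflammasome partners and effectors outside the family, more genes were called lower than higher in DKO. Of 17 listed genes 14 were tested. After RA, 0 were called higher and 8 lower in DKO, where 22.0% of all tested genes were called higher and 20.7% lower, and the median log2 fold change was -0.54, against 0.01 over all. In serum/LIF, 1 was called higher and 6 lower, against 17.8% and 15.4% of all genes, with a median of -0.16, against -0.01 over all. Aim2, a receptor for cytosolic DNA that also uses ASC, averaged 49.0 ± 1.83 normalized counts in DKO RA, 110 ± 16.0 in WT RA, 192 ± 23.6 in DKO serum/LIF and 1206 ± 86.0 in WT serum/LIF (SD, n = 3 each), the same order of groups as Nlrp3. Its log2 difference between DKO and WT was -1.14 ± 0.14 after RA and -2.65 ± 0.14 in serum/LIF (limma adjusted p = 6.21e-07 and 4.58e-13). Txnip, whose product binds NLRP3, differed by -1.73 ± 0.07 after RA and -0.93 ± 0.07 in serum/LIF (limma adjusted p = 2.95e-15 and 2.45e-10). Gsdmd, the pore-forming gasdermin, differed by -1.97 ± 0.17 and -0.98 ± 0.17 (limma adjusted p = 1.77e-09 and 8.76e-05), and the protease gene Casp8 by -2.98 ± 0.26 and -1.31 ± 0.26 (limma adjusted p = 1.93e-09 and 0.000335). Casp1, the caspase of the NLRP3 inflammasome, was below the filter with 12, 26, 2 and 2 reads in DKO RA, WT RA, DKO serum/LIF and WT serum/LIF.

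With RA, 6 partners were called higher and 5 lower in DKO cells, close to the 40.2% and 38.2% of all tested genes. In WT cells 8 were called higher and 4 lower, against 41.4% and 39.2% of all genes. Pycard, the gene of the ASC adaptor, fell in both (log2 fold changes -1.97 ± 0.11 in DKO and -2.21 ± 0.11 in WT, limma adjusted p = 6.32e-14 and 5.21e-15), as did Aim2 (-1.94 ± 0.14 and -3.45 ± 0.14, limma adjusted p = 8.02e-12 and 7.94e-17). Casp8 rose in both (0.62 ± 0.26 and 2.30 ± 0.26, limma adjusted p = 0.0312 and 1.78e-08).

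**Figure D3:**
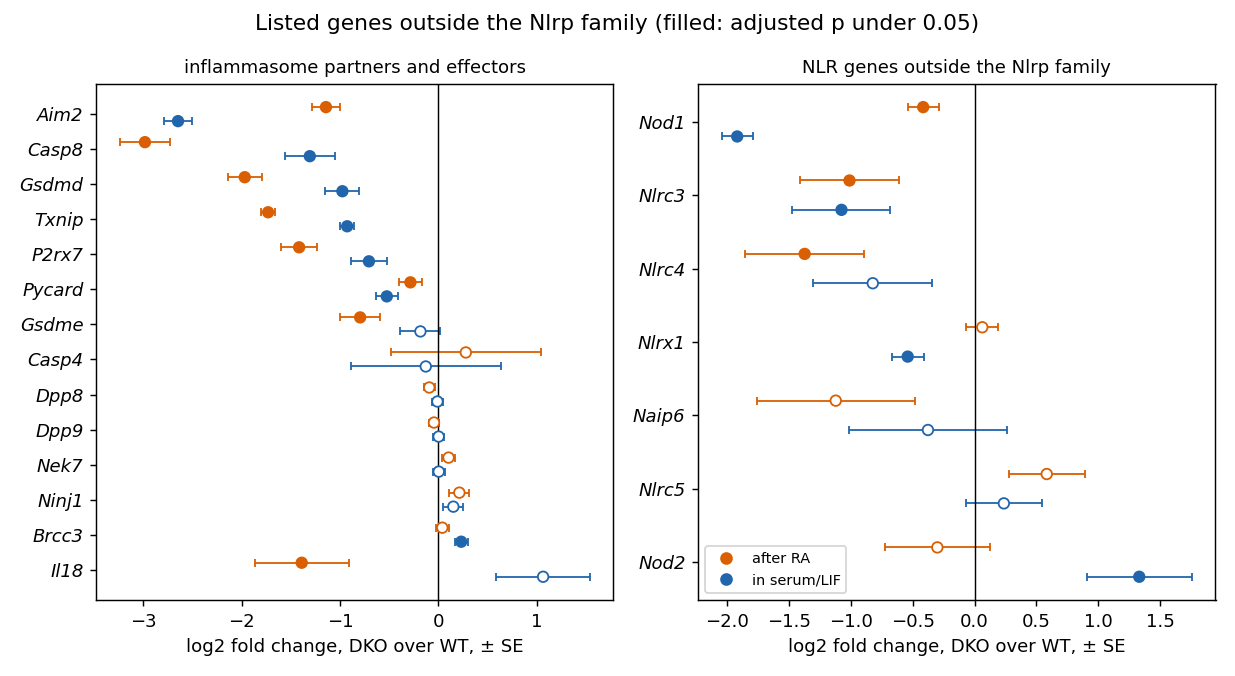
Log2 fold change of DKO over WT with the SE of the limma fit, after RA and in serum/LIF, for tested inflammasome partners and effectors (left) and NOD-like receptor genes outside the Nlrp family (right), with filled points at an adjusted p under 0.05. Aim2 and Nod1 lie furthest left in serum/LIF, and Casp8 lies furthest left after RA.

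NOD-like receptor genes outside the family were called in both directions. Of 12 listed 7 were tested. After RA, 0 were called higher and 3 lower in DKO (median log2 fold change -0.42), against 22.0% and 20.7% of all tested genes. In serum/LIF 1 was called higher and 3 lower (median -0.54), against 17.8% and 15.4% of all genes. Nod1, a sensor of bacterial peptidoglycan, averaged 108 ± 14.3 normalized counts in DKO RA, 145 ± 22.4 in WT RA, 347 ± 15.5 in DKO serum/LIF and 1315 ± 42.7 in WT serum/LIF (SD, n = 3 each). This is again the order seen for Nlrp3, with log2 differences between DKO and WT of -0.41 ± 0.13 after RA and -1.92 ± 0.13 in serum/LIF (limma adjusted p = 0.00961 and 1.39e-11). Nod2, its relative, was higher in DKO in serum/LIF (log2 fold change 1.33 ± 0.43, limma adjusted p = 0.0182). Nlrx1, a mitochondrial member of the wider family, and Nlrc3 were lower there (-0.54 ± 0.13 and -1.08 ± 0.40, limma adjusted p = 0.00217 and 0.039). With RA, Nlrc4 fell in DKO and WT cells (-5.21 ± 0.48 and -4.66 ± 0.48, limma adjusted p = 5.34e-10 and 3.54e-09). Over the list, 1 gene was called higher and 3 lower with RA in DKO cells, against 40.2% and 38.2% of all genes, and 0 higher and 2 lower in WT cells, against 41.4% and 39.2%.

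Some genes of the subcortical maternal complex and other oocyte genes outside the family were called higher in DKO after RA and lower in DKO in serum/LIF. Of 19 listed 9 were tested. After RA, 3 were called higher and 0 lower in DKO (median log2 fold change 0.43), against 22.0% and 20.7% of all tested genes. In serum/LIF 0 were called higher and 5 lower (median -0.56), against 17.8% and 15.4% of all genes. The 3 genes higher after RA, Tle6, Khdc3 and Ooep, all encode parts of the complex, and all 3 were lower in DKO in serum/LIF. Tle6 differed by 1.03 ± 0.07 after RA and -0.24 ± 0.07 in serum/LIF (limma adjusted p = 6.43e-11 and 0.0133), Khdc3 by 0.50 ± 0.11 and -0.59 ± 0.11 (limma adjusted p = 0.00101 and 0.000243), and Ooep by 0.43 ± 0.10 and -0.46 ± 0.10 (limma adjusted p = 0.00175 and 0.0012). Padi6 and Zbed3, tested in the same list, did not follow these genes. Their log2 differences were -0.15 ± 0.73 and 0.05 ± 0.09 after RA (limma adjusted p = 0.887 and 0.699). In serum/LIF they were 0.31 ± 0.73 and -0.02 ± 0.09 (limma adjusted p = 0.787 and 0.909). The interaction was called for 5 of the 9 genes, each positive, where 14.8% of all genes were called positive and 16.0% negative. With RA 4 were called higher and 4 lower in DKO cells, close to the 40.2% and 38.2% of all genes, and 1 higher and 6 lower in WT cells, against 41.4% and 39.2%. The ES cell markers moved in the same way: 8 of 8 were called higher in DKO after RA, 0 were called higher and 5 lower in serum/LIF, and 8 of 8 interactions were called positive. Markers of two-cell-like cells did not: 16 of 16 tested were called lower in DKO after RA and 10 of 16 in serum/LIF, and their summed level over 18 genes was 147 to 205 in DKO RA, 5444 to 5681 in WT RA, 7.04 to 22.9 in DKO serum/LIF and 275 to 355 in WT serum/LIF. The part of these cell states in the Nlrp differences was not tested.

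Genes most like 3 of the family were looked for by the root mean square difference between log2 group means over the 4 groups, after each gene's own mean was removed, among 13347 genes outside the family. Nlrp3 was closest to Ak7, an adenylate kinase gene (0.204 log2 units), Aim2 (0.253) and the cytokine gene Osm (0.278). Nlrp9b was closest to Capsl (0.284), Spn, which encodes leukosialin (0.381), and Osm (0.432). Nlrp4a had no gene as near: Fam25c (0.789), the chemerin receptor gene Cmklr1 (0.86) and Gstp2 (0.917) came first. Ak7 averaged 30.8 normalized counts in DKO RA, 72.8 in WT RA, 143 in DKO serum/LIF and 824 in WT serum/LIF. These distances describe 4 group means and carry no test.

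The nearest tested neighbours on the chromosome were compared for the genes with a genotype difference. Ceacam20, 16.9 kb from Nlrp9b, was also lower in DKO in serum/LIF (log2 fold change -2.18 ± 0.36, limma adjusted p = 4.4e-05), and after RA its difference was -0.68 ± 0.36 (limma adjusted p = 0.135). On its other side Zfp180, 4019 kb away, differed by -0.17 ± 0.06 after RA (limma adjusted p = 0.0351). The neighbours of Nlrp3, Zkscan17 and Mprip, differed by -0.18 ± 0.04 and 0.24 ± 0.03 after RA (limma adjusted p = 0.00106 and 2.15e-06), and by -0.09 ± 0.04 and 0.10 ± 0.03 in serum/LIF (limma adjusted p = 0.0965 and 0.0213). Those of Nlrp4a, Cyp2s1 and Cyp2b23, at 619 and 189 kb, differed by -0.31 ± 0.24 and -1.33 ± 0.49 after RA (limma adjusted p = 0.324 and 0.0338), and by -0.16 ± 0.24 and -0.39 ± 0.49 in serum/LIF (limma adjusted p = 0.659 and 0.591).

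Zfp369, at 73.1 kb from Nlrp4f, was higher in DKO after RA (log2 fold change 0.60 ± 0.12, limma adjusted p = 0.000211) and differed by 0.02 ± 0.12 in serum/LIF (limma adjusted p = 0.905). Mfsd14b, at 64.1 kb on its other side, was higher by 0.15 ± 0.06 after RA (limma adjusted p = 0.045). Both neighbours of Nlrp4c, Epn1 and Zfp787, at 947 and 26.3 kb, were lower in DKO after RA (log2 fold changes -0.26 ± 0.05 and -0.26 ± 0.10, limma adjusted p = 0.000261 and 0.0353). Nlrp4c was lower too, as were 20.7% of all tested genes. Psmd13, at 22.3 kb from Nlrp6, was lower in DKO in serum/LIF (-0.16 ± 0.04, limma adjusted p = 0.00422), and Pgghg, at 12.2 kb, differed by -0.02 ± 0.07 there (limma adjusted p = 0.824). After RA, where Nlrp6 was not called, Psmd13 differed by -0.24 ± 0.04 and Pgghg by 0.27 ± 0.07 (limma adjusted p = 4.62e-05 and 0.00266). Near Nlrp4g, 2010315B03Rik at 36.1 kb differed by -0.37 ± 0.22 after RA and by 0.61 ± 0.22 in serum/LIF (limma adjusted p = 0.189 and 0.0355), and Ppp2r3d at 117 kb by -0.03 ± 0.16 and -0.08 ± 0.16 (limma adjusted p = 0.893 and 0.763).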

How the data were processed

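RNA-seq of 12 libraries (4 groups of 3, from the sample titles) was used. Per the submitters' processing notes the build was mm10 and the tools were DESeq2 1.44.0, featureCounts (Subread 2.0.6), STAR 2.7.11b and Trim Galore 0.6.10. Their settings for strand and for reads with several matches were not stated. The library columns deposited by the authors hold a signal, DESeq2 normalized counts: 100% of values were whole reads (within 0.01 read) once multiplied by a size factor. Per the file headers, the gene table also holds the authors' log2 fold changes and their adjusted p-values, used only where named. The deposited repeat table was not used.

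Values were transformed as log2(value + 1), and a value of 10 in at least 3 libraries was asked of a gene, which 15750 genes met and 2151 did not. limma 3.58.1 (R 4.3.3, trend and robust) was run in 1 fit with a mean for each group, without a replicate block, with Benjamini-Hochberg adjustment over all tested genes. The script was tested on simulated data. Of values of 1 to 20 reads, 80.11% to 84.14% were even in every library, as when both mates of a pair are counted. The 95% counting interval given for Nlrp4a therefore uses read pairs (reads halved and rounded up). It covers counting error only.

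The members, gene lists and tests were chosen with earlier results of these data known. Named genes are every member, up to 4 called genes of smallest adjusted p per list and comparison (a part of these is named), the nearest tested neighbours, and the 3 genes of most similar pattern for Nlrp4a and the 2 members of widest range. Casp1, Padi6 and Zbed3 were named after their values were seen. Alternatives were a pseudocount of 5, no filter, TMM factors, edgeR 4.0.16 and DESeq2 1.42.0 on the recovered reads, a replicate block, each library left out, and, chosen after seeing the data, edgeR on read pairs.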

Additional observations from a re-analysis of the deposited data

Results flagged for a closer look

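The genotype difference of 4 Nlrp genes was not the same after RA as in serum/LIF by the interaction term of the limma fit over all genes, which is the log2 difference between DKO and WT after RA minus that in serum/LIF. It was 1.53 for Nlrp4f, 1.55 for Nlrp9b, 1.67 for Nlrp14 and 1.61 for Nlrp3, and of these 4 that of Nlrp4f alone was called with each library left out in turn. The value of Nlrp4a was 4.10 and is a description with no test, because its serum/LIF difference was known when the gene was chosen. For Nlrp4a, Nlrp9b and Nlrp3 the DKO libraries were the lower ones under both conditions by group mean. For Nlrp14 the mean was 9.16 normalized counts in DKO RA and 4.94 in WT RA, and 74.2 in DKO serum/LIF and 124 in WT serum/LIF.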

How the results depend on the processing

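Over 45 log2 fold changes (9 genes in 5 comparisons) and 19 alternative settings, 780 of 855 values kept their direction and their side of the threshold, 54 lost a call, 18 gained one and 3 changed sign. The sign changes were in uncalled values and came with 1 library left out: the log2 fold change ranged from -0.0193 to 0.112 for Nlrp4f (DKO against WT in serum/LIF), from -1.15 to 0.754 for Nlrp12 (DKO against WT after RA) and from -1.55e-06 to 0.484 for Nlrp6 (RA in WT). The number of Nlrp genes called for the interaction was 2 to 4 with 1 library left out, and 5 over all 12, Nlrp4a included. In the other comparisons it stayed within 1.5 times the reported number under every setting. The numbers of all genes called did so too. With a replicate block the interaction count was 4, since Nlrp3 was not called (adjusted p = 0.051), and the block changed no other call of these genes. The numbers share no source in the labels, and of 18 pairs of same-numbered libraries 0 had deviations correlated above 0.1 (-0.0325 to 0.0507). DESeq2 called 7 interactions and no filter 6. A pseudocount of 5 and edgeR on read pairs each added a call for Nlrp6. Depth limits Nlrp12 and Nlrp4g most, with 92 and 198 reads over 12 libraries.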
